A study of Mus musculus with 8 samples.

Results

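Stretches of the mouse genome in which tagged histone H3.3 was scarce relative to tagged H3.1, in lines with the wild-type histones and in lines with the K36M mutants, are described here. They were taken from HA chromatin immunoprecipitation and sequencing (ChIP-seq) of 4 lines of C3H10T1/2 cells, which are mesenchymal progenitors derived from C3H mouse embryos. The lines stably expressed FLAG-HA-tagged H3.3K36M, H3.3WT, H3.1K36M or H3.1WT, where K36M replaces the lysine at position 36 of the histone tail with methionine and WT is the unchanged protein, and all were used at passage 10 to 15. A bin of 10 kb was called H3.3-poor when its log2 ratio of H3.3WT over H3.1WT was -1 or lower, its log2 ratio of H3.3K36M over H3.1K36M was -0.8 or lower and the mean of its H3.1 libraries was below 7 RPM. RPM is a read count scaled to the same total in every library, and 0.1 RPM was added before each ratio. These bins were chosen by their measured HA signal. The rule took 10197 of the 245206 bins used, or 4.16%, which together make up 102.0 Mb of mm9. This count depends on the scale: it was 489 when each library was scaled by its median bin and 338 when 1 RPM was added before each ratio. It used all 4 libraries, and the levels and ratios inside these bins are descriptions of what was chosen, and no test was made on them.

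Histone H3.1 and H3.3 differ at a few residues and reach chromatin by different routes. H3.1 is handed over by the chaperone CAF-1 behind the replication fork, so it marks DNA that was copied. H3.3 is also placed outside replication, by HIRA at active genes and regulatory elements and by the ATRX and DAXX complex at repeats and telomeres, and it replaces nucleosomes lost through transcription. Chromatin with little transcription therefore tends to keep the H3.1 it received at replication and to gain little H3.3. The K36M change acts on other histones as well, since it blocks the enzymes that methylate this lysine. In these lines the tagged histone was made on top of the cell's own untagged H3, which the HA antibody does not see.

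The 4 HA libraries held 38783917 reads (H3.3K36M), 46749609 (H3.3WT), 41705735 (H3.1K36M) and 35487141 (H3.1WT), recovered from the steps of the RPM values. Each line gave 1 HA library, and differences between the lines therefore come with no replicates behind them. All intervals are 95% Clopper-Pearson intervals on reads or bins and cover counting error only. They treat reads and bins as independent, although neighbouring bins are alike. Both H3.3 libraries carry titles that start with H3.1, and their group was taken from the genotype label instead. A Cbx2 antibody appears in the protocol text where the sample descriptions give HA, and HA was taken as the target. With the inputs not used here, the placement of the histones and background reads cannot be told apart.

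The H3.3-poor bins were low in H3.3 rather than high in H3.1. Their median signal was 1.86 RPM for H3.3K36M (10th to 90th percentile 1.01 to 2.41), 1.44 RPM for H3.3WT (0.817 to 1.9995), 3.74 RPM for H3.1K36M (2.17 to 4.70) and 3.48 RPM for H3.1WT (2.07 to 4.61). The medians of all bins used were 3.004, 2.77, 3.64 and 3.65 RPM in the same order of libraries. H3.3-poor bins thus held 0.621 times the median H3.3K36M signal and 0.519 times the median H3.3WT signal, while H3.1K36M and H3.1WT stood at 1.03 and 0.953 times theirs. In 98.3% of them both H3.3 libraries were below their medians, against 40.6% of all bins. Both H3.1 libraries were above their medians in 37.7% of the H3.3-poor bins and in 39.5% of all bins. The 175 bins in which an H3.3 library reached its median had a high median H3.1 level of 6.08 RPM. The name H3.3-poor fits most of the bins by level as well as by ratio. These levels come from the libraries of the rule, whose thresholds favour low H3.3. Its limit on H3.1 also left out 139 bins of high H3.1, so the levels describe the choice of bins.

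**Figure D1:**
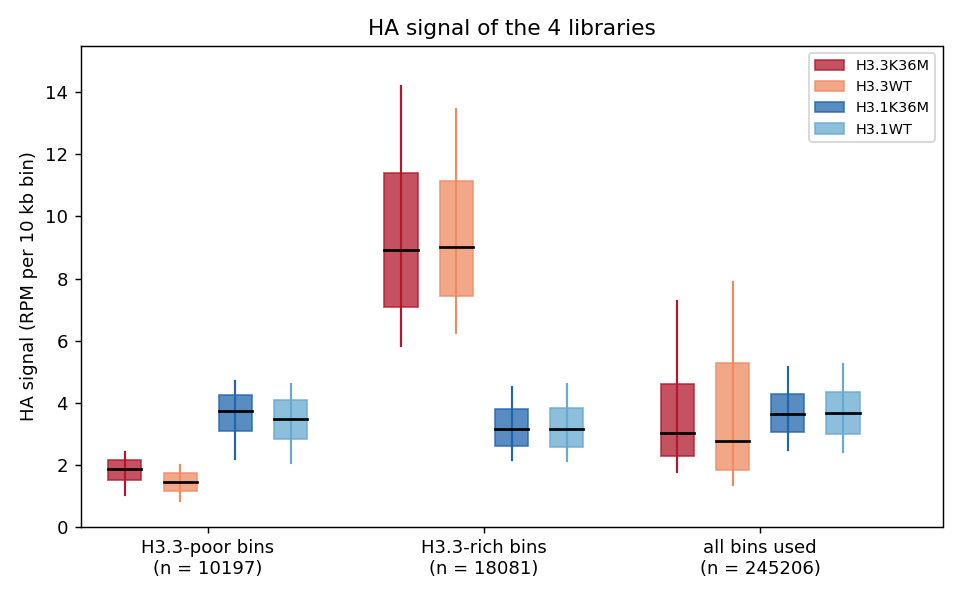
HA signal in RPM per 10 kb bin in the libraries H3.3K36M, H3.3WT, H3.1K36M and H3.1WT, for H3.3-poor bins, for H3.3-rich bins (log2 ratios of 1 and 0.8 or higher) and for all bins used. Black lines are medians, boxes the 25th to 75th and thin lines the 10th to 90th percentiles over bins; the H3.3-poor bins have H3.3 medians of 1.86 and 1.44 RPM and H3.1 medians close to those of all bins.

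As a counterpart, 18081 bins were rich in H3.3 in both genotypes, with log2 ratios of at least 0.8 in the K36M lines and at least 1 in the WT lines and the same limit on H3.1. Their median signal was 8.94 RPM for H3.3K36M and 9.01 RPM for H3.3WT, and their H3.1 medians were 3.13 RPM for H3.1K36M and 3.14 RPM for H3.1WT. Between the classes H3.3 differed widely and H3.1 little, which the opposite ratio thresholds and the shared limit on H3.1 favour. H3.3-poor bins carried more H3.1 than H3.3-rich bins, by 0.60 RPM for H3.1K36M and 0.34 RPM for H3.1WT at the median. A ratio over H3.1 is in both rules, which by itself pushes the H3.1 levels apart in this direction.

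The H3.3-poor bins formed the outer edge of a large group of bins with low H3.3, and no gap in the data set them apart. In the H3.3-poor bins the median log2 H3.3/H3.1 ratio was -0.94 in the K36M lines (10th to 90th percentile -1.18 to -0.82) and -1.18 in the WT lines (-1.44 to -1.03). Over all bins these medians were -0.30 and -0.43. The most densely filled part of the plane of both ratios lay at -0.6 to -0.5 in the K36M lines and -0.9 to -0.8 in the WT lines, just outside the thresholds. Of the H3.3-poor bins, 5665 or 55.6% lay within 0.1 of a ratio threshold. The 3830 bins just inside the K36M threshold had medians of 2.05 RPM for H3.3K36M and 3.76 RPM for H3.1K36M, and the 4933 bins just outside it had 2.15 and 3.69 RPM. At the WT threshold the 3025 bins just inside had 1.61 RPM for H3.3WT and 3.45 RPM for H3.1WT, and the 3101 just outside had 1.72 and 3.40 RPM.

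**Figure D2:**
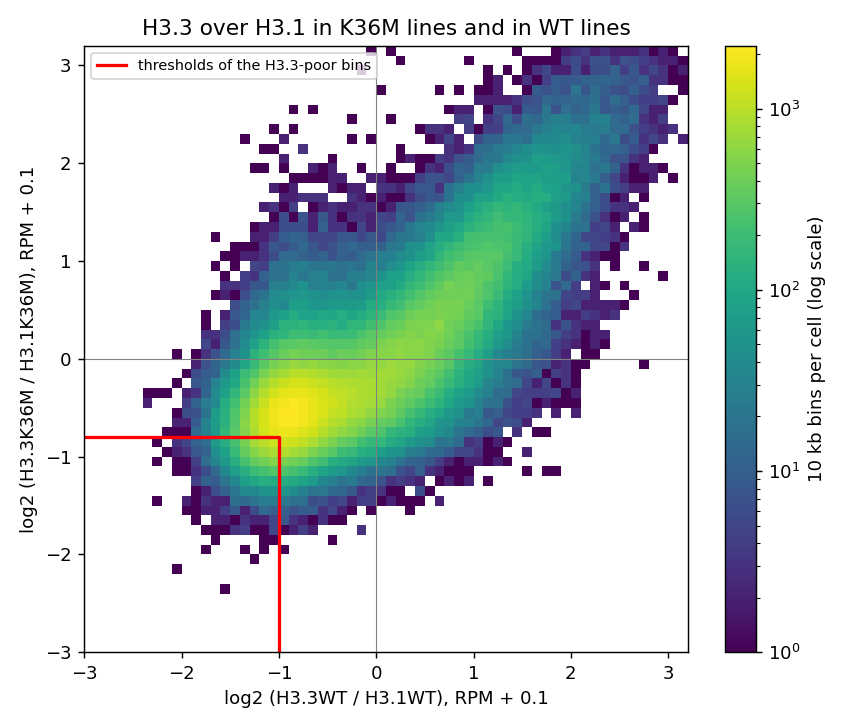
Log2 ratio of H3.3K36M over H3.1K36M (vertical axis) against log2 ratio of H3.3WT over H3.1WT (horizontal axis) for the 245206 bins used, with 0.1 RPM added. Colour gives the number of bins per cell on a log scale, and the red lines enclose the region of the H3.3-poor bins, whose corner cuts into the dense lower left part of the cloud.

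The K36M pair and the WT pair of libraries share no library. In the K36M lines 26278 bins (10.7%) passed their threshold, and in the WT lines 41171 bins (16.8%) did. Both were passed by 10336 bins, which is 39.3% of those passing in the K36M lines and 25.1% of those passing in the WT lines; 139 of them were left out by the limit on H3.1. Among bins poor in the K36M lines only, the median signal was 1.94 RPM for H3.3K36M and 2.11 RPM for H3.3WT, with 3.83 RPM for H3.1K36M and 3.45 RPM for H3.1WT. Among bins poor in the WT lines only, it was 2.46 RPM for H3.3K36M and 1.55 RPM for H3.3WT, with 3.47 RPM for H3.1K36M and 3.65 RPM for H3.1WT. In each of these classes the library that failed the threshold was still below the median of all bins in most cases, since both H3.3 libraries were below their medians in 73.2% of the bins poor in K36M lines only and in 79.5% of those poor in WT lines only. The split between the classes is one of degree at these thresholds.

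Depth limited how sharply a single bin could be placed. An H3.3-poor bin had a median of 72 reads in H3.3K36M, 67 in H3.3WT, 155 in H3.1K36M and 123 in H3.1WT. The interval of the H3.3/H3.1 ratio lay below 1 in both genotypes for 10196 of the 10197 bins, but it lay below 0.5 in both for 39 bins (0.382%). The rule asks for low ratios in the same reads, which all but fixes the count below 1. These intervals do not allow for that, and neither count was made over all bins. The recovered reads of each bin were therefore also divided at random, with one portion choosing the bins and the other giving their values. Of the 11884 bins chosen in this way, 98.5% had H3.3 below H3.1 in both genotypes in the other portion, while 26.1% met the full rule again. Their median log2 ratio in the other portion was -0.75 in the K36M lines and -1.04 in the WT lines, against -0.28 and -0.41 over all bins. The median over all bins was thus also below 0, and the share of all bins with H3.3 below H3.1 in both genotypes was not counted. In the choosing portion 4.85% of all bins met the full rule, and on all reads 4.16% did. In the other portion the median of the chosen bins was short of the threshold of -0.8 in the K36M lines. It was slightly past that of -1 in the WT lines. Both portions came from the same library of each line, so they cover counting error only.

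In the bins as chosen by this rule, H3.3 was less scarce in the K36M line than in the WT line. The median log2 H3.3K36M/H3.3WT ratio was 0.30 (10th to 90th percentile -0.0042 to 0.63), against 0.10 over all bins, and H3.3K36M was the higher in 89.6% of the H3.3-poor bins and in 58.4% of all bins. The threshold is looser in the K36M lines, which by itself favours such a shift. With thresholds of -1 in both genotypes, on the same libraries, the median was 0.20 in 3604 bins. In those bins the median log2 H3.1K36M/H3.1WT ratio was 0.12. The shift is therefore a description of the chosen bins. The difference was small in each bin: H3.3K36M exceeded H3.3WT by 2-fold or more in 78 H3.3-poor bins (0.765%, against 2.94% of all bins) and lay below it by 2-fold or more in 0 (against 1.81% of all bins). Bins poor in both genotypes cannot differ much between them, so these counts show what the rule leaves. The SD of this log2 ratio was 0.26 over the H3.3-poor bins and 0.49 over all bins, where counting error alone gives 0.27 and 0.20. The rule narrows the spread of the chosen bins, so their SD does not show how much they vary beyond counting.

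H3.1 was nearly equal in both lines. The median log2 H3.1K36M/H3.1WT ratio in the H3.3-poor bins was 0.069 (10th to 90th percentile -0.18 to 0.33), against -0.00094 over all bins. H3.1K36M was the higher in 63.8% of the H3.3-poor bins and in 49.8% of all bins. A deficit of 2-fold or more in H3.1K36M was found in 2 H3.3-poor bins (0.064% of all bins) and an excess of that size in 0 (0.0122% of all bins). Across the H3.3-poor bins the H3.3K36M/H3.3WT ratio rose with the H3.1K36M/H3.1WT ratio (Pearson's r 0.58, n = 10197), whereas r was 0.047 over all 245206 bins. Both ratios of H3.3 over H3.1 are held in a narrow range by the rule, which by itself ties the K36M ratios of the histones together, so r describes the choice of bins.

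The H3.3-poor bins covered a wide range of H3.1, and since the rule holds both ratios past a threshold, H3.3 has to follow H3.1 among them. The 851 bins with a mean H3.1 below 2 RPM had medians of 0.699 RPM for H3.3K36M and 0.581 RPM for H3.3WT. The 4380 bins with 3 to 4 RPM of H3.1 had 1.84 RPM for H3.3K36M and 1.42 RPM for H3.3WT. The 441 bins with 5 to 7 RPM of H3.1 had 2.77 RPM for H3.3K36M and 2.43 RPM for H3.3WT, near the medians of all bins. Median log2 ratios in the 5 classes of H3.1 ran from -1.01 to -0.93 in the K36M lines and from -1.21 to -1.16 in the WT lines. H3.3-poor bins made up 7.31% of all bins under 2 RPM of H3.1, between 3.86% and 4.87% of the 3 classes from 2 to 5 RPM, and 1.93% of bins with 5 to 7 RPM. The excess of H3.3K36M over H3.3WT was also smallest in the class of highest H3.1, with a median log2 ratio of 0.20, and largest at 3 to 4 RPM, with 0.33.

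Along the chromosomes, most H3.3-poor bins were single bins, although they lay near one another. At 20 kb from the edge of a run 15.6% of the bins were H3.3-poor, against 4.16% of all bins. The 10197 bins fell into 8086 runs of touching bins, and 6618 of them (64.9%) had no H3.3-poor neighbour. Runs of 20 kb held 21.2% of the bins, runs of 30 to 40 kb held 10.5%, and 60 runs of 50 kb or more held 347 bins (3.40%, interval 3.06 to 3.77). H3.3-rich bins were far more often joined: 33.5% were single and 24.6% (24.0 to 25.3) belonged to 602 runs of 50 kb or more, which reached up to 320 kb. The longest H3.3-poor runs were 100 kb. The classes are not alike in size, with 4.16% of all bins H3.3-poor and 7.37% H3.3-rich. H3.3-poor bins had medians of 72 reads in H3.3K36M and 67 in H3.3WT, and H3.3-rich bins 345 and 419. How far counting error near the thresholds breaks up the runs was not tested. When 1 bin that missed the rule was allowed inside a run, the share of H3.3-poor bins in runs of at least 50 kb was 16.8%. Bins in longer runs were slightly poorer in H3.3, with median log2 ratios of -0.99 in the K36M lines and -1.24 in the WT lines in runs of at least 50 kb, against -0.93 and -1.17 in single bins.

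**Figure D3:**
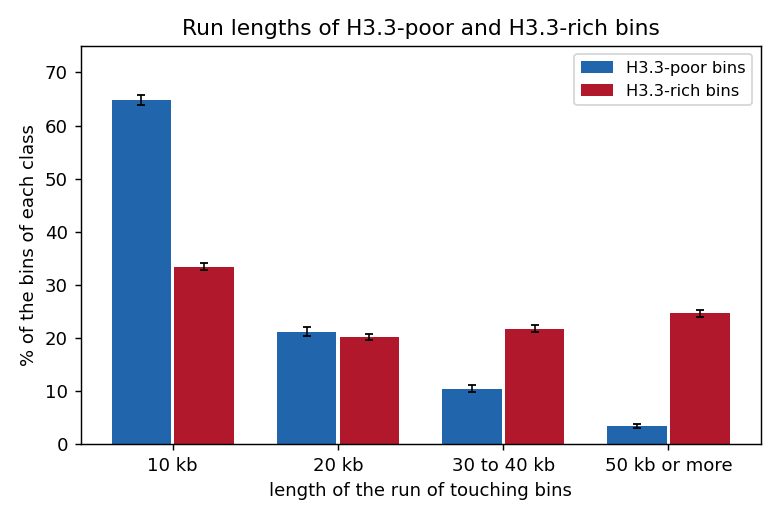
Percent of H3.3-poor bins and of H3.3-rich bins (vertical axis) that lay in runs of touching bins of the given length (horizontal axis). Bars are shares of all bins of the class and error bars 95% Clopper-Pearson intervals; 64.9% of H3.3-poor bins were single, against 33.5% of H3.3-rich bins.

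Both runs of 100 kb consist, like all others, of bins chosen for their low ratios. At chr12:108200001-108300000 the signal per bin was 2.03 RPM for H3.3K36M, 1.37 RPM for H3.3WT, 3.96 RPM for H3.1K36M and 3.41 RPM for H3.1WT. H3.3 was 0.512 times H3.1 in the K36M lines (interval 0.469 to 0.557) and 0.401 times in the WT lines (0.363 to 0.441). At chr11:81500001-81600000 all libraries were higher, with 2.68 RPM for H3.3K36M, 2.12 RPM for H3.3WT, 5.37 RPM for H3.1K36M and 4.94 RPM for H3.1WT, and the ratios were 0.498 (0.462 to 0.536) and 0.429 (0.397 to 0.464).

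Of the 10 longest runs, 4 lay on chromosome 9. The first of these, chr9:98070001-98150000, had 1.79 RPM for H3.3K36M, 1.22 RPM for H3.3WT, 3.74 RPM for H3.1K36M and 3.06 RPM for H3.1WT. At chr9:46730001-46800000 the signals were 1.75, 1.19, 4.09 and 3.101 RPM in the same order, and H3.3 was 0.427 times H3.1 in the K36M lines (0.383 to 0.476) and 0.383 times in the WT lines (0.338 to 0.434). Only about 0.2 Mb further, chr9:47020001-47090000 had the lowest WT ratio of the 10 longest runs, 0.361 (0.319 to 0.409), with 0.472 (0.423 to 0.526) in the K36M lines. The last of them was chr9:26430001-26500000, with ratios of 0.447 (0.402 to 0.497) and 0.393 (0.350 to 0.442). In all 4 the interval of H3.1K36M over H3.1WT lay above 1, with ratios between 1.17 and 1.32. Chromosome 9 as a whole was higher in H3.1K36M, as given below.

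The other long runs were chr14:78100001-78180000, chr16:6140001-6220000, chr4:152190001-152260000 and chr5:128870001-128940000. At chr14:78100001-78180000 the lines were closest, with 1.81 RPM for H3.3K36M and 1.59 RPM for H3.3WT, a ratio of 1.14 (1.01 to 1.28), and with 3.84 RPM for H3.1K36M and 3.66 RPM for H3.1WT. The run at chr16:6140001-6220000 had 2.16 RPM for H3.3K36M and 1.67 RPM for H3.3WT beside 4.17 RPM for H3.1K36M and 3.95 RPM for H3.1WT. At chr4:152190001-152260000 both K36M libraries were the higher: 1.35 RPM for H3.3K36M against 0.854 RPM for H3.3WT, a ratio of 1.58 (1.35 to 1.85), and 3.03 RPM for H3.1K36M against 2.15 RPM for H3.1WT, a ratio of 1.41 (1.27 to 1.58). This was the highest H3.1 ratio of all 60 runs of at least 50 kb. The run at chr5:128870001-128940000 had the ratios 0.474 (0.416 to 0.539) in the K36M lines and 0.404 (0.350 to 0.464) in the WT lines.

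Over the 60 runs of at least 50 kb, the interval of H3.3K36M over H3.3WT lay above 1 in 50 runs, below 1 in 1 and on neither side in 9. For H3.1K36M over H3.1WT these counts were 37, 2 and 21. Over all bins used, divided into 47276 stretches of 50 kb, the interval lay above 1 in 47.3% and below 1 in 29.6% for H3.3, and above 1 in 15.7% and below 1 in 15.2% for H3.1. The runs were chosen with a looser threshold in the K36M lines, which favours a higher H3.3K36M, so nothing is read from the difference. The highest H3.3 ratios were at chr13:57670001-57730000, with 2.07 RPM for H3.3K36M and 1.16 RPM for H3.3WT, a ratio of 1.78 (1.54 to 2.06), and at chr4:152690001-152740000, with 1.37 RPM for H3.3K36M and 0.808 RPM for H3.3WT, a ratio of 1.69 (1.40 to 2.05). After these came chr13:72580001-72630000 at 1.66 (1.40 to 1.96). The exception was chr2:24050001-24100000, where both WT libraries were the higher. It held 1.90 RPM for H3.3K36M against 2.49 RPM for H3.3WT, a ratio of 0.761 (0.666 to 0.869), and 3.77 RPM for H3.1K36M against 6.19 RPM for H3.1WT, a ratio of 0.610 (0.555 to 0.669). H3.3 over H3.1 was still low there in both genotypes, at 0.502 in the K36M lines and 0.402 in the WT lines, with H3.3 and H3.1 both lower in the K36M lines.

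The single bins with the lowest mean of both log2 ratios rested on few reads, and 7 of the 10 had under 50 reads in both H3.3 libraries. The lowest, chr2:82170001-82180000, had 10 reads in H3.3K36M, 16 in H3.3WT, 52 in H3.1K36M and 50 in H3.1WT, which gives 0.259, 0.344, 1.25 and 1.42 RPM. H3.3 was 0.207 times H3.1 in the K36M lines (0.0936 to 0.411) and 0.243 times in the WT lines (0.129 to 0.434). Better covered was chr16:3650001-3660000, with 1.61 RPM for H3.3K36M, 1.48 RPM for H3.3WT, 6.15 RPM for H3.1K36M and 4.98 RPM for H3.1WT. There H3.3 was 0.261 times H3.1 in the K36M lines (0.195 to 0.346) and 0.298 times in the WT lines (0.222 to 0.396). The bins chr2:116370001-116380000 and chr11:55600001-55610000 had 64 and 67 reads in H3.3K36M and 48 and 66 in H3.3WT. Their ratios of H3.3 over H3.1 were 0.347 (0.258 to 0.463) and 0.362 (0.270 to 0.479) in the K36M lines. In the WT lines these ratios were 0.240 (0.170 to 0.334) and 0.243 (0.182 to 0.323). Of the others, 3 lay on chromosome 14, at chr14:7390001-7400000, chr14:25480001-25490000 and chr14:5150001-5160000, and 1 each at chrX:9200001-9210000, chr3:157330001-157340000 and chr18:16100001-16110000. All 6 had between 0.181 and 0.518 RPM for H3.3K36M and between 0.194 and 0.452 RPM for H3.3WT. Ranking by the ratio favours bins with few reads, which the printed intervals leave out of account.

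Low H3.3 extended well beyond the runs. The bins that touched a run without belonging to it had medians of 2.31 RPM for H3.3K36M and 1.70 RPM for H3.3WT, with log2 ratios over H3.1 of -0.60 in the K36M lines and -0.93 in the WT lines. At 100 kb from a run the bins that were not H3.3-poor had 2.46 RPM for H3.3K36M and 1.83 RPM for H3.3WT, and at 500 kb they had 2.72 and 2.17 RPM. At 1000 kb they had 2.90 RPM for H3.3K36M, close to the 3.004 RPM of all bins, and 2.45 RPM for H3.3WT, still below 2.77 RPM. Over the same distances H3.1K36M lay at 3.49 to 3.62 RPM and H3.1WT at 3.40 to 3.59 RPM. These were also below the medians of all bins, 3.64 RPM for H3.1K36M and 3.65 RPM for H3.1WT. The bins outside the runs leave out all H3.3-poor bins, which by itself keeps their ratios up, and they are neighbours in the same libraries. A bin was counted once for each run edge at the given distance.

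**Figure D4:**
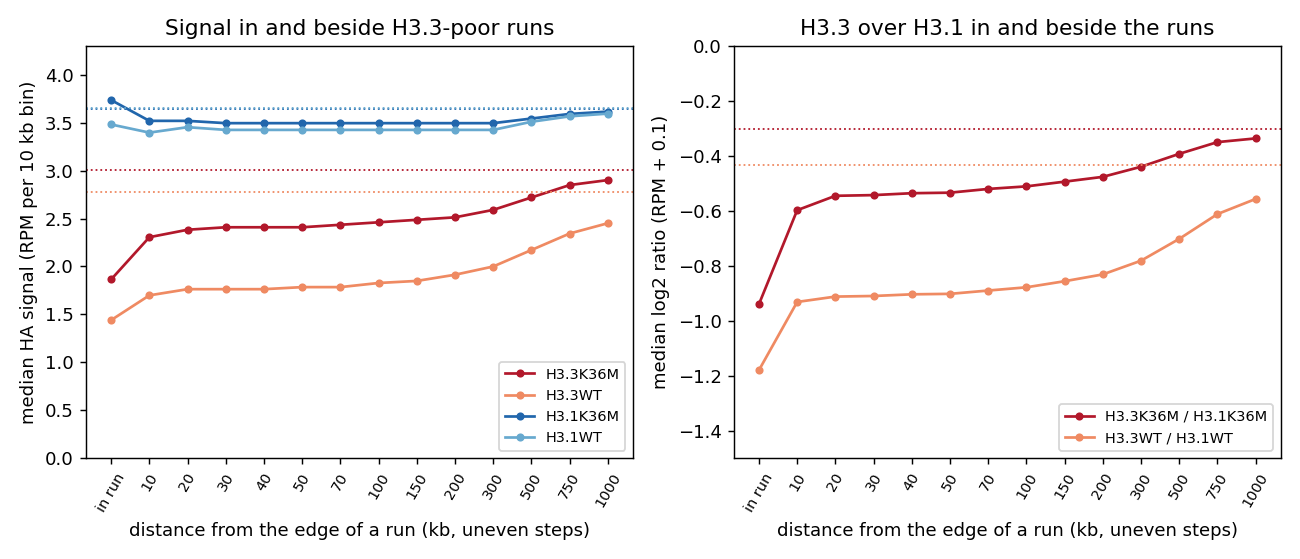
Median HA signal in RPM per 10 kb bin (left) and median log2 ratio of H3.3 over H3.1 (right) inside H3.3-poor runs and in bins outside the rule at increasing distance from a run's edge, in kb on uneven steps. Dotted lines are the medians of all bins used. Outside the runs all libraries stay below theirs up to 1000 kb. The H3.1 libraries lie between 3.40 and 3.74 RPM throughout.

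Bins beside a run were often past one of the thresholds. At 15652 run edges a bin in use touched the run. It passed the WT threshold only at 37.8% of these edges and the K36M threshold only at 16.1%. Of all bins outside the class 13.1% and 6.78% did. A bin between runs was counted once for each edge, here and at the distances below. The H3.3-poor bins also lay near one another without touching. At 20 kb from the edge of a run 15.6% of the bins were H3.3-poor, at 200 kb 11.5% and at 1000 kb 6.49%, against 4.16% of all bins. Beside a stretch with no 10 kb bin in use lay 4.81% of the H3.3-poor bins and 3.46% of all bins. The share was also 4.13% for H3.3-rich bins, 4.21% for bins poor in WT lines only and 3.97% for bins poor in K36M lines only.

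The authors' H3.3K36M peaks avoided the H3.3-poor bins. Of 10197 bins, 0 held an H3.3K36M peak, where 4.25% of all bins and 30.6% of the H3.3-rich bins did, and 0 held an H3.1K36M peak, where 0.0338% of all bins did. The H3.3K36M peaks come from a library of the rule, so this count is a property of the choice. The distances to these peaks rest on the same library and are no separate evidence. The median distance was 551 kb from an H3.3-poor bin, 18.6 kb from an H3.3-rich bin and 194.2 kb from any bin. An H3.3K36M peak was found within 100 kb for 6.56% of the H3.3-poor bins (interval 6.09 to 7.06), against 79.6% of the H3.3-rich bins and 35.8% of all bins. Farther than 1 Mb from any such peak lay 23.1% of the H3.3-poor bins, 1.15% of the H3.3-rich bins and 11.8% of all bins. Bins poor in the WT lines only, whose H3.3K36M level the rule did not require to be low, were at a median of 516 kb, and 52 of the 30835 held a peak.

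The share of H3.3-poor bins, as deposited, was not even over the chromosomes. On chromosome 9, 1147 of 11729 bins were H3.3-poor, or 9.78% (interval 9.25 to 10.3), followed by chromosome 14 with 7.76% (7.27 to 8.26) and chromosome 1 with 7.34% (6.97 to 7.72). These 3 chromosomes held 33.3% of the H3.3-poor bins and 17.0% of the bins used. The lowest shares were 1.66% on chromosome 15 (1.42 to 1.93), 2.06% on chromosome 10 (1.82 to 2.33) and 2.17% on chromosome 6 (1.94 to 2.43). H3.3-poor bins lie near one another, so these intervals are too narrow to compare chromosomes, and the order changes with centring, as given below.

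Whole chromosomes were shifted between the libraries, and the shares moved with the shifts in H3.3 over H3.1. Relative to all bins, the K36M lines had a median log2 H3.3/H3.1 ratio of -0.20 on chromosome 9, -0.15 on chromosome 14 and -0.13 on chromosome 1. Across the 20 chromosomes the share of H3.3-poor bins and this median had r of -0.82 (Spearman's rho -0.68), and for the median of H3.3WT over H3.1WT r was -0.42 (rho -0.60). For the median of H3.3K36M over H3.3WT r was -0.045 (rho 0.096). For that of H3.1K36M over H3.1WT it was 0.22 (rho -0.10). The points share their libraries with the rule, so each r is a description. On chromosome 9 the H3.1K36M signal was shifted up by 0.11 against H3.1WT, while H3.3K36M was shifted down by 0.14 against H3.3WT. In the WT lines the ratio on chromosome 9 was 0.10 above that of all bins. On chromosome 15 the median of H3.3WT over H3.1WT was 0.39 above that of all bins, and 3.80% of its bins passed the WT threshold, while 11.6% passed the K36M threshold.

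The order of chromosomes did not hold when both ratios were centred on the median of each chromosome, a step chosen after seeing the data. Centring gave 10329 H3.3-poor bins, of which 6715 were also chosen without it. The share on chromosome 9 was then 6.07%, on chromosome 14 1.93% and on chromosome 1 2.67%, while chromosome 15 had 5.59%, chromosome 10 4.24% and chromosome 6 2.09%. Highest after centring was chromosome 11, with 9.98% against 2.39% as deposited, and lowest was chromosome X, with 0.673% against 3.62%. Whether copy number, background or the placement of the histones shifts a chromosome was not tested.

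**Figure D5:**
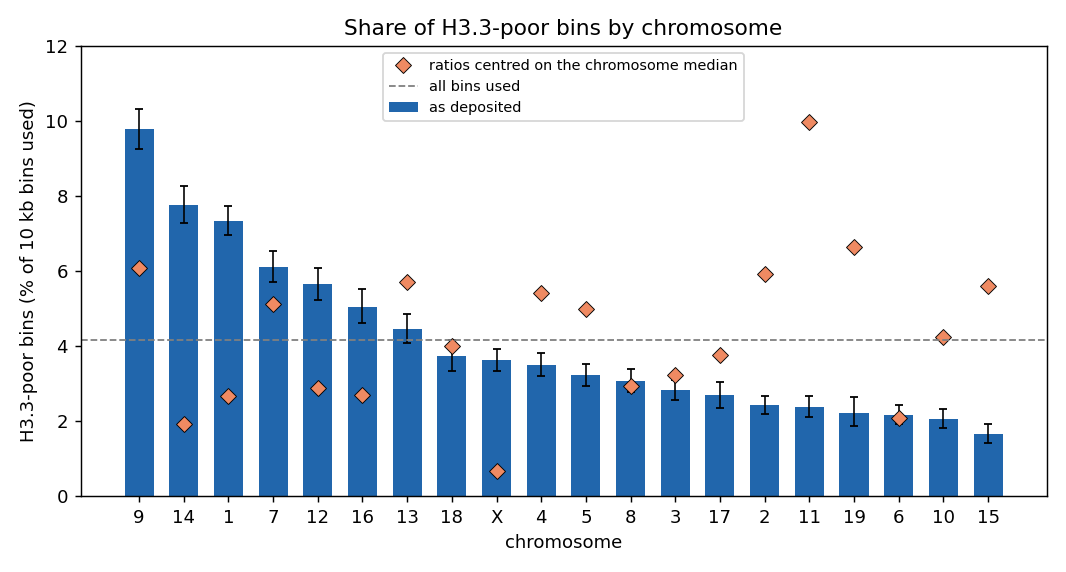
Share of H3.3-poor bins in percent of the 10 kb bins used (vertical axis) on each chromosome (horizontal axis), in the order of the shares as deposited. Bars are shares as deposited with 95% Clopper-Pearson intervals, diamonds the shares after both ratios were centred on the chromosome's median and the dashed line the 4.16% of all bins; chromosomes 14 and 1 fall below that line after centring and chromosome 11 rises to 9.98%.

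By chromosome, the median log2 H3.3K36M/H3.3WT ratio in H3.3-poor bins ran from 0.16 on chromosome X to 0.53 on chromosome 13 across the 20 chromosomes. Its distance from the median of all bins on the same chromosome was smallest on chromosome X, at 0.0082, and was 0.47 on chromosome 15. The looser threshold in the K36M lines favours a higher ratio on every chromosome, so its direction there supports nothing further. On chromosome 18 the median was 0.42, of which 0.36 was the median of the whole chromosome. For H3.1K36M over H3.1WT the medians ran from -0.024 on chromosome X to 0.15 on chromosome 9. The chromosomes share the same libraries and are not replicates.

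On the scale of 1 Mb, H3.3-poor bins gathered in a limited number of places. Of 2537 windows of 1 Mb with at least 50 bins in use, 793 (31.3%) held 0 H3.3-poor bins and the median share was 2.04%. In 80 windows at least 20% of the bins were H3.3-poor, and these windows held 2131 bins or 20.9% of the class. Of the 80 windows, 17 were on chromosome 9, 12 on chromosome 14 and 11 on chromosome 1. These windows, and the ones named next, were picked with their values in view.

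The densest was chr9:46000001-47000000, with 47 of 96 bins H3.3-poor, and 37 after centring on chromosome medians. Its median signals over all bins were 1.94 RPM for H3.3K36M, 1.33 RPM for H3.3WT, 3.89 RPM for H3.1K36M and 3.11 RPM for H3.1WT. At chr14:29000001-30000000, 48 of 100 bins were H3.3-poor, but 6 after centring. At chr4:152000001-153000000, with 47 of 98 bins, the number was 59 after centring, so this window was dense under both. It had medians of 1.39 RPM for H3.3K36M, 0.925 RPM for H3.3WT, 2.82 RPM for H3.1K36M and 2.12 RPM for H3.1WT, and it contained the long runs at chr4:152190001-152260000 and chr4:152690001-152740000. Of the 10 densest windows, 5 were on chromosome 9 and 3 on chromosome 14.

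Position between the ends of a chromosome showed no steady trend. With each chromosome divided into 10 equal parts from its first bin, the share of H3.3-poor bins was lowest in part 5, at 3.297%, and highest in part 2, at 5.20%. The SD over chromosomes within a part was between 1.44 and 4.43 percentage points, and the shares of the 10 parts differed by less than most of these SDs. In the first 5 Mb with bins 4.65% were H3.3-poor, in the last 5 Mb 3.93% and elsewhere 4.15%. The share was above that elsewhere on the same chromosome for 7 of 20 first ends and 6 of 20 last ends.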

How the data were processed

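HA ChIP-seq was analysed in 4 of the 8 samples, 1 library per line; the inputs were not used here. Groups come from the genotype field of the labels. The submitters' processing notes name Bowtie 1.0.0 and mm9. The sources used here do not state how bins were counted or peaks called. RPM per genomic bin and peak positions on a 200 bp grid, with no score, were deposited by the authors. All values (100% within 0.01 of a read) were whole multiples of a step per library, from 0.0215 to 0.0283 RPM, so reads were recovered.

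Of 251622 rows on chromosomes 1 to 19 and X, 247593 were 10 kb wide, and 245206 had a mean of at least 0.5 RPM. Folds of regions are RPM ratios with exact intervals on recovered reads. With 1 library per group no test was possible. Named regions were the 10 longest runs, the 10 bins of lowest mean log2 ratio, the extreme chromosomes, bins with peaks and the long runs with the 3 highest and 3 lowest K36M over WT ratios. H3.3-poor bins, lists and alternatives were chosen with earlier results of these data known. No annotation of mm9 was at hand, so genes, exons and introns are not given. Coordinates are 1-based. The steps were tested on simulated data. Software was scipy 1.17.1, numpy 2.4.6 and pandas 2.3.3 in Python 3.11.15, with plots from matplotlib 3.10.9.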

Additional observations from a re-analysis of the deposited data

Results flagged for a closer look

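Rows wider than 10 kb, which the comparisons do not use, also held H3.3-poor stretches. Scaled to RPM per 10 kb, 114 of the 3605 wider rows with enough signal met the rule, or 3.16%, against 4.16% of the 10 kb bins.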

How the results depend on the processing

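The count of H3.3-poor bins depended on the settings. It was 10197 as reported, and it moved to 338 with a pseudocount of 1 RPM, 965 with only bins at or above the median signal, 489 with each library scaled by its median bin, and 3604, 16103 and 466 with thresholds of -1, -0.8 and -1.2 in both genotypes. Scaling moved the median log2 ratio of all bins from -0.30 to -0.036 in the K36M lines and from -0.43 to -0.051 in the WT lines, and that of H3.3K36M over H3.3WT from 0.10 to -0.0092. The other alternatives kept the count within 1.5 times.

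The median log2 H3.3K36M/H3.3WT ratio, 0.30 in the H3.3-poor bins, stayed above 0 and above the median of all bins in the 16 alternatives. In the order of the 6 settings above it was 0.24, 0.22, 0.26, 0.20, 0.22 and 0.19. A pseudocount of 0.01 RPM gave 0.32, and the ratio was 0.31 on autosomes and 0.34 with separate portions of reads. Except for the settings with equal thresholds, all keep the looser threshold in the K36M lines, which favours this direction. With thresholds of -1 in both genotypes the median was 0.10 above that of all bins, against 0.20 as reported. The direction over the alternatives therefore supports nothing further. For H3.1K36M over H3.1WT, 0.069 at first, the same 6 settings gave 0.052, 0.0031, 0.092, 0.12, 0.088 and 0.12; it was 0.075 on autosomes, 0.045 with separate portions of reads, 0.088 with centred chromosomes and 0.059 without chromosome 9.

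The share of bins in runs of at least 50 kb, 3.40% at first, was 0%, 1.04%, 0%, 0.277%, 5.82% and 0% in the 6 settings. A pseudocount of 0.01 RPM gave 4.53%, and the share was 1.35% with separate portions of reads, 4.24% with centred chromosomes, 2.72% without chromosome 9, 2.996% with at least 2 RPM of H3.1 and 16.8% with runs bridged across 1 bin. The share holding an H3.3K36M peak stayed at 0% except that 2.28% lay within 50 kb of one. Centring, leaving out chromosome 9 and the minimum on H3.1 were added after seeing the data. No paired analysis was possible because each group had 1 library and the columns carry no replicate number.

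Single bins are limited by a median of 72 and 67 reads in H3.3K36M and H3.3WT. Without replicates or inputs, differences between lines and between libraries cannot be told apart.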

Other observations

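Some places dense in H3.3-poor bins were low in all 4 libraries. In chr14:4000001-5000000, where 30 of 66 bins were H3.3-poor, the median signals were 0.570 RPM for H3.3K36M, 0.516 RPM for H3.3WT, 1.23 RPM for H3.1K36M and 1.12 RPM for H3.1WT. In chr14:7000001-8000000, with 27 of 66 bins, they were 0.673, 0.570, 1.31 and 1.25 RPM in the same order, and in chr12:19000001-20000000, with 36 of 85 bins, 1.04, 0.839, 2.10 and 1.78 RPM. After centring on chromosome medians these windows held 12, 13 and 22 H3.3-poor bins.

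The 139 bins that passed both ratio thresholds but not the limit on H3.1 had medians of 4.38 RPM for H3.3K36M, 3.83 RPM for H3.3WT, 8.65 RPM for H3.1K36M and 8.69 RPM for H3.1WT. Their H3.3 was above the medians of all bins, so a low ratio there came with a high H3.1 and not with a low H3.3. Another 164 bins met the other parts of the rule below the filter of 0.5 RPM, out of 2387 such rows.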
